A study of Mus musculus with 2 samples.

Results

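The 10 genes described here are the lysosomal and secretory granule proteins Ctsa, Ctsb, Ctsc, Ctsd, Ctsh, Ctsl, Ctss, Ctsz, Lyz1 and Lyz2, taken by gene symbol from tables that list 20938 genes. All 10 were found, and all 10 passed the minimum mean level of 1 that 16659 genes passed. The cathepsins Ctsb, Ctsc, Ctsh, Ctsl, Ctss and Ctsz are cysteine proteases and Ctsd is an aspartyl protease, whereas Ctsa is a serine carboxypeptidase in spite of its name. RNA-seq was performed on Treg cells of the mouse spleen from recipients of BALB/c islets under the kidney capsule, isolated on day 7 after the transplantation, with 1 library per genotype. The recipients had a C57BL/6J background, had been made diabetic with streptozotocin and received no tolerance-inducing antibodies. The cKO library (KD in the deposited tables) came from Foxp3-Mettl14 f/+ mice, which carry 1 floxed allele of the m6A methyltransferase subunit Mettl14 and a Cre driven by Foxp3, so that the deletion is directed to Foxp3+ cells and 1 allele stays intact. The control library (Ctrl) came from littermate controls, which the methods give as Mettl14 f/f. Age and the number of animals per library are not given in the sources used here, and the cells were enriched with a CD4+CD25+ isolation kit, which does not select on Foxp3 itself. By flow cytometry the paper reports that most cells isolated in this way were Foxp3+ in both genotypes, without naming the cells of these libraries. The labels give the genotypes as wild type and a Foxp3 knockdown, which differs from the protocol text, and the protocol's genotypes are used here.

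Cathepsins are made as inactive precursors, routed to the lysosome and activated there at acid pH, where they degrade proteins taken up from outside or by autophagy. In antigen-presenting cells Ctss removes the invariant chain Cd74 from MHC class II molecules, and Ctsl does so in the thymic epithelium. Ctsc activates the serine proteases stored in granules of neutrophils and cytotoxic lymphocytes. Lysozymes cut the peptidoglycan of bacterial cell walls. Lyz2 is the lysozyme of macrophages, monocytes and granulocytes and Lyz1 that of Paneth cells in the small intestine. The study's tissue, the spleen, holds many of the cells that use Lyz2, whereas the cathepsins are made by most cells and are richest in macrophages.

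The deposited levels are whole reads divided by 1 size factor per library, and they come to 20239325 reads for the control and 18327535 for the cKO library. Changes are log2 ratios of cKO to control levels with a pseudocount of 1 added to each, and a gene was called at a difference of 1.5-fold. The 95% intervals come from recovered reads by the exact Clopper-Pearson method and hold no error but that of counting. Since each genotype has 1 library, no difference can be set against a spread between replicates, and no p-value is given for the genotype. Mettl14 had a level of 917 in the control and 741 in the cKO library. Its log2 fold change was -0.31 (95% interval -0.45 to -0.16). That value ran from -0.40 with library totals to -0.07 with 16 T cell core genes set equal between the libraries. Foxp3 had 1547 and 1361 reads, for a log2 fold change of 0.05 (95% interval -0.06 to 0.15) that ran from -0.04 with library totals to 0.29 with T cell core genes set equal. In both libraries genes of other cells were also abundant, and the granulocyte gene S100a9 reached 7324 and 9434 reads per kilobase of transcript per 1000000 reads (RPKM), against 19.9 and 19.4 for Foxp3.

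The lysozyme genes are neighbours on the minus strand of chromosome 10, Lyz1 at chr10:117287797-117292868 and Lyz2 at chr10:117277331-117282321 (GRCm38, GENCODE vM21), and they are shown first because reads of near-identical genes can be assigned to the wrong copy. Their coding sequences are 447 bases long each, differ at 22 bases and are 95.1% identical. The longest stretch that the Lyz1-201 and Lyz2-201 transcripts share is 118 bases, lies within the coding sequence and begins at transcript position 306 in Lyz1-201 and 355 in Lyz2-201.
Shared by Lyz1 and Lyz2: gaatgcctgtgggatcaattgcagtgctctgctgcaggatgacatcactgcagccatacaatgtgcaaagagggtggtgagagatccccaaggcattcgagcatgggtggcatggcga
Of the windows of 50 bases in each transcript, 195 are found in both, which is 16.1% of those of Lyz1 and 15.4% of those of Lyz2. For windows of 100 bases the number is 24, or 2.06% and 1.97%. How the counting treated reads that match both genes is not given in the sources used here, so the level of Lyz1, the far less abundant gene, is uncertain. Upstream, a comparison by position from the start site that allows no gaps found the same base at 152 of 250 positions (60.8%). An inserted or lost base would lower that share, so it is not set against the identity of the coding sequences. The stretch at positions -140 to -61 from the start site is printed with its 12 differing bases in capitals (GRCm38.p6, RefSeq start sites, minus strand, chr10:117292929-117293008 and chr10:117282333-117282412).
Lyz1: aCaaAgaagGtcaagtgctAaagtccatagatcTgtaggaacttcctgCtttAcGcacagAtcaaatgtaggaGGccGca
Lyz2: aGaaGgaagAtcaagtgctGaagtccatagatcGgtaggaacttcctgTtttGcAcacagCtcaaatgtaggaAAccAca

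The cathepsin genes are spread over other chromosomes: Ctsa (chr2:164832873-164841032) and Ctsz (chr2:174427493-174439039), Ctss (chr3:95526786-95556403), Ctsc (chr7:88278085-88310888) and Ctsd (chr7:142375911-142388038), Ctsh (chr9:90054152-90076089), Ctsl (chr13:64359337-64370890) and Ctsb (chr14:63122462-63145923). Exons of 3 of them overlap a measured gene on the other strand, and whether the counting used strand is not given in the sources used here. Ctsa overlaps Pltp, which encodes a phospholipid transfer protein, by 1515 exon bases and Neurl2 by 324. Pltp had 138 and 314 reads (log2 fold change 1.41) and Neurl2 had 41 and 68 (0.95), few beside the 2421 and 2938 reads of Ctsa. Ctsb overlaps the squalene synthase gene Fdft1 by 774 exon bases, with 763 and 469 reads for Fdft1 against 5164 and 6203 for Ctsb. The overlap of Ctsz with Nelfcd is 10 bases. The annotation also places genes that the tables do not list over exons of Ctsc, Ctsd and Ctsl. On the other strand, the noncoding gene Gm26522 covers 397 exon bases of Ctsc. The protein-coding model Gm49369, on the same strand, covers 1498 exon bases of Ctsd, and the pseudogene Gm49230, on the same strand, and the antisense gene Gm47123 cover 395 and 1971 exon bases of Ctsl. How reads in these overlaps were counted is not given in the sources used here.

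Per length of the principal transcript, the members spanned a wide range of levels, and Lyz2 led in both libraries with 815 RPKM in the control and 1373 in the cKO library. It was the gene of rank 48 among all genes with a length in the control and of rank 14 in the cKO library. Ctss followed with 186 and 282 RPKM and Ctsd with 135 and 145. Ctsz, Ctsb and Ctsc formed a middle group, with control levels of 58.3, 53.8 and 49.5 RPKM and cKO levels of 83.0, 71.4 and 72.7. Ctsh stood at 33.7 and 64.8 RPKM and Ctsa at 32.8 and 44.0. At the low end Lyz1 had 17.1 and 18.6 RPKM and Ctsl 3.08 and 2.57. Neighbours in this order had separate exact Poisson intervals except Ctsh and Ctsa in the control library and Ctsc and Ctsb in the cKO library. The order of Ctsc and Ctsh depends on the transcript length used, since over the union of all exons Ctsc had 21.3 and 31.2 RPKM, Ctsh 12.1 and 23.3 and Ctsa 25.4 and 34.0.

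**Figure D1:**
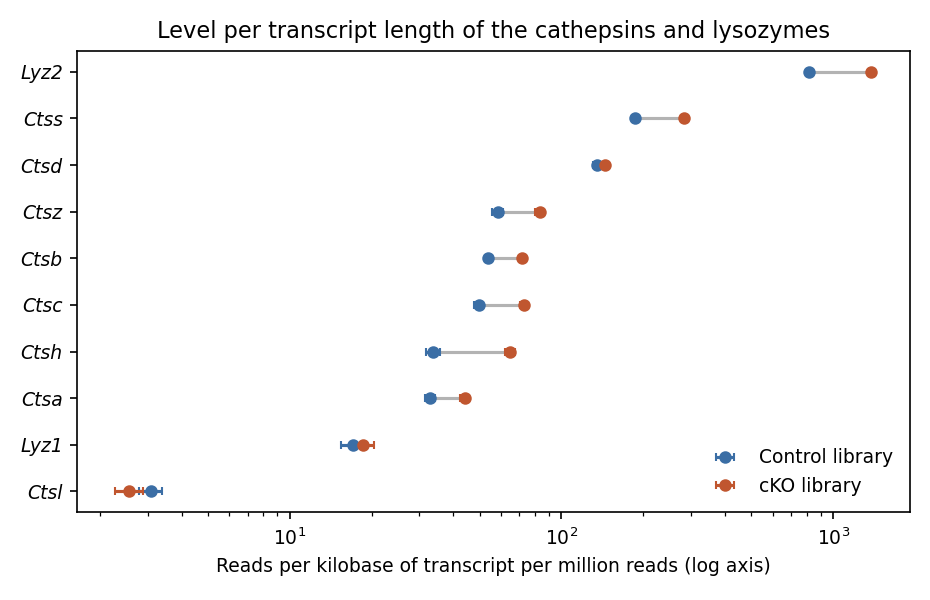
Level of each gene in reads per kilobase of transcript per 1000000 reads (log axis) in the control library (blue) and the cKO library (orange), with exact Poisson 95% intervals for counting error and a grey line between the libraries. Lyz2 is highest at 815 and 1373, and Ctsl, at 3.08 and 2.57, is the lowest and the only gene whose cKO point lies to the left of its control point.

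The cathepsins and lysozymes were mostly higher in the cKO library than in the control library. Of the 10 genes, 5 were at least 1.5-fold higher (Ctsh, Lyz2, Ctss, Ctsc and Ctsz), where 17.2% of all genes tested were, and 0 were at least 1.5-fold lower, where 24.2% were. Their median log2 fold change was 0.56, beside a median of -0.04 over all 16659 genes. Summed, their reads went from 46315 to 63081, or from 0.229% to 0.344% of all reads. With the deposited scaling their summed level went from 44805 to 71733, for a log2 fold change of 0.68 (95% interval 0.66 to 0.70). The change in the share of reads is smaller, since it follows library totals. In bulk RNA a change in the number of cells of a type and a change in RNA per cell cannot be told apart. The call depended on scaling. With TMM or median-of-ratios scaling 4 members were called, without Ctsz, and with library totals 3 members were called, Ctsh, Ctss (0.60) and Lyz2 (0.75), and the median was 0.47. With T cell core genes set equal 7 members were called, and over all genes the split of higher and lower calls turned from 2864 and 4028 to 4200 and 3337, with a median of all genes of 0.20 in place of -0.04. That split also rested on genes at low levels, since a minimum mean of 10 gave 2112 higher and 2035 lower, and genes above 0 in both libraries gave 2182 and 1904, with the members at 5 and 0 in each.

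Among the cysteine cathepsins, Ctsh, an aminopeptidase, had the largest fold change of the 10 genes. Its level was 1067 in the control and 2182 in the cKO library (1103 and 1919 reads), for a log2 fold change of 1.03 (95% interval 0.92 to 1.14). It was the single member past a threshold of 2-fold. Ctss, which acts on the invariant chain, had levels of 4939 and 7974 (5105 and 7012 reads), for a log2 fold change of 0.69 (95% interval 0.64 to 0.74). Ctsc, the activator of granule serine proteases, went from 2417 to 3778 (2498 and 3322 reads; 0.64, 95% interval 0.57 to 0.72). Ctsz, a carboxypeptidase, went from 1645 to 2493 (1700 and 2192 reads; 0.60, 95% interval 0.51 to 0.69), which is just inside the threshold at 1.52-fold. Ctsb, an abundant broad protease of most cells, stayed outside it, with levels of 4996 and 7054 (5164 and 6203 reads; 0.50, 95% interval 0.44 to 0.55). Ctsl went against the others: its levels were 371 and 330 (384 and 290 reads), for a log2 fold change of -0.17 whose 95% interval of -0.40 to 0.05 holds 0 and which was 0.07 with T cell core genes set equal. Summed over the 6 cysteine cathepsins the log2 fold change was 0.63 (95% interval 0.60 to 0.66).

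Of the cathepsins that are not cysteine proteases, the carboxypeptidase Ctsa, which also protects lysosomal neuraminidase and beta-galactosidase, had levels of 2342 and 3341 (2421 and 2938 reads). Its log2 fold change of 0.51 (95% interval 0.43 to 0.59) lies just outside the threshold, at 1.43-fold. The aspartyl protease Ctsd had levels of 5605 and 6432 (5794 and 5656 reads). Its log2 fold change of 0.20 (95% interval 0.15 to 0.25) was below those of all the cysteine cathepsins except Ctsl. All 8 cathepsins together went from 24169 to 29532 reads, for a log2 fold change of 0.52 (95% interval 0.50 to 0.55).

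The lysozymes differed from each other. Lyz2 had levels of 21002 and 37660, from 21710 and 33118 reads, for a log2 fold change of 0.84 (95% interval 0.82 to 0.87) and the narrowest interval of the 10 genes. It alone held more reads than the other 9 genes together in the cKO library, 33118 against 29963, whereas in the control library it held fewer, 21710 against 24605. Lyz1 had levels of 422 and 490, from 436 and 431 reads, for a log2 fold change of 0.22 (95% interval 0.02 to 0.41). The ratio of Lyz2 to Lyz1 reads went from 49.8 to 76.8, a log2 change of 0.63 (95% interval 0.43 to 0.82) that needs no scaling. Without Lyz2 the median of the remaining 9 genes was 0.51 and 4 of them were called.

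**Figure D2:**
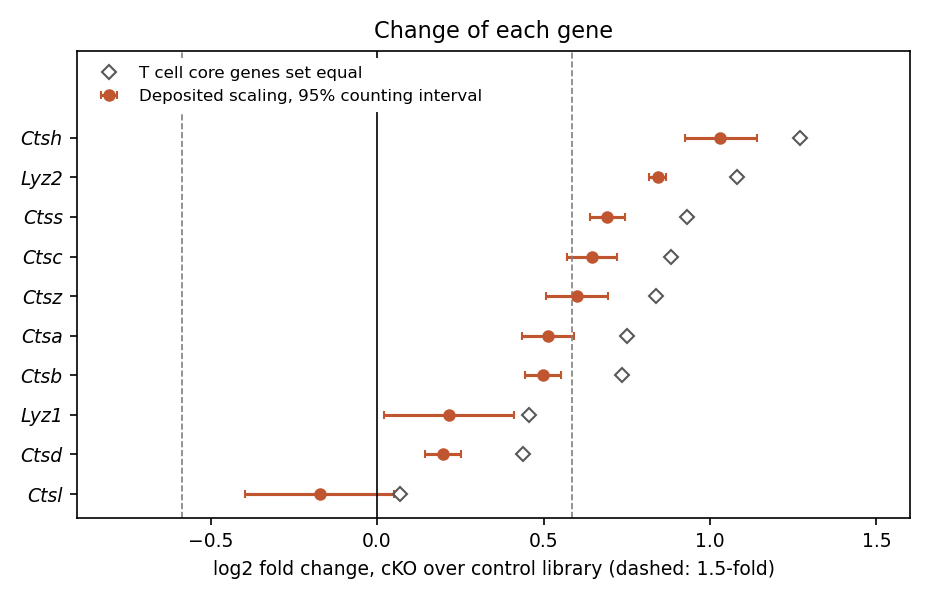
Log2 fold change, cKO over control library, of each gene with its 95% interval for counting error (orange) and the value with T cell core genes set equal between the libraries (open diamonds, no interval drawn); dashed lines mark 1.5-fold. Ctsh at 1.03 and Lyz2 at 0.84 lie farthest to the right, and Ctsl at -0.17 is the only gene whose interval holds 0.

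On the recovered reads, an exact binomial test (two-sided, with TMM-scaled totals as the null ratio and Benjamini-Hochberg adjustment over 14863 genes) called Ctsh, Lyz2, Ctss and Ctsc as higher and none of the 10 as lower, where 14.3% of genes were called higher and 18.1% lower. Ctsz was not called, since this scaling puts it under 1.5-fold. Such a test is about these 2 libraries, not about the genotypes. With a biological coefficient of variation of 0.2 assumed in edgeR's exact test, Ctsh alone was called, where 6.26% of genes were higher and 10% lower. With 0.4 assumed, none of the 10 was called, where 1.54% were higher and 3.83% lower. That setting called 0% of genes simulated with a log2 change of 2, which is larger than the change of any member. The simulation changed only 200 genes, so its adjustment was stricter than that of the data. In the data, Cd79a, with 1012 and 4318 reads and a log2 fold change of 2.33, was not called at 0.4 either. That setting therefore cannot decide about the 10 genes.

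Lyz2 was then compared with each cathepsin by the ratio of their reads within a library, which does not depend on any scaling between the libraries. Each ratio itself reflects the transcript lengths, so only its change is read. Lyz2 reads per Ctss read went from 4.25 to 4.72, a log2 change of 0.15 (95% interval 0.09 to 0.21), and per Ctsc read from 8.69 to 9.97 (0.20, 95% interval 0.12 to 0.28). Lyz2 stayed close to both of these, and the change against Ctsz was 0.24 (95% interval 0.15 to 0.34). Ctsa (0.33, 95% interval 0.25 to 0.41) and Ctsb (0.34, 95% interval 0.29 to 0.40) came next. The ratio moved more against Ctsd, from 3.75 to 5.86 Lyz2 reads per read (0.64, 95% interval 0.59 to 0.70), and most against Ctsl, from 56.5 to 114 (1.01, 95% interval 0.79 to 1.24). Ctsh was the exception, with a ratio that went from 19.7 to 17.3 (-0.19, 95% interval -0.30 to -0.08). Lyz2 thus gained on 7 of the 8 cathepsins beyond counting error and lost ground to Ctsh. Adding the Lyz1 reads to those of Lyz2 takes up reads assigned to the wrong copy, but not reads left uncounted for matching both. The sum gave 0.14 against Ctss and -0.20 against Ctsh. Of the 45 pairs among the 10 genes, 7 had an interval of the relative change that holds 0: Ctsa with Ctsb, Ctsa with Ctsz, Ctsb with Ctsz, Ctsc with Ctss, Ctsc with Ctsz, Ctss with Ctsz, and Ctsd with Lyz1.

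**Figure D3:**
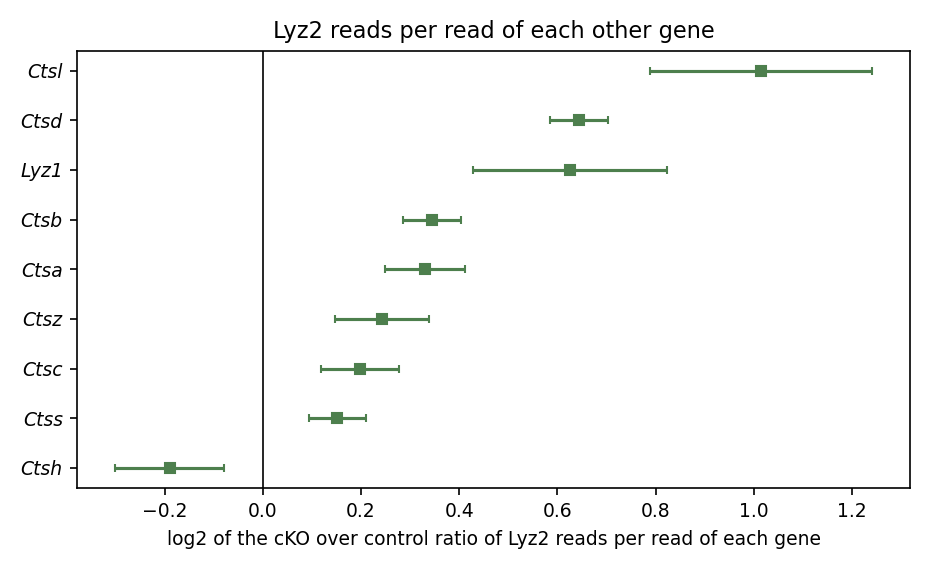
Log2 of the cKO over control ratio of Lyz2 reads per read of each other gene, with exact conditional 95% intervals for counting error. All genes but Ctsh (-0.19) lie to the right of 0, from Ctss at 0.15 to Ctsl at 1.01.

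Markers of other cells changed to different degrees, and none of the marker lists holds any of the 10 genes. The counts of every list stand against the 17.2% of all genes that were higher and the 24.2% that were lower. All 18 macrophage markers were past 1.5-fold toward the cKO library, with a median log2 fold change of 2.88 and a summed level that went from 8499 to 23846. Of the abundant markers, Sirpa, an inhibitory receptor, was at 3201 and 4386 reads (0.69) and the iron exporter Slc40a1 was at 1339 and 1960 (0.78), beside 0.69 for Ctss, 0.84 for Lyz2 and 1.03 for Ctsh. Csf1r, the receptor for macrophage colony-stimulating factor, had 2197 and 4145 reads (1.15), and Cd5l, secreted by tissue macrophages, had 26 and 479 (4.38). Marco and Timd4, receptors of resident macrophages, were at 0 reads in the control library and at 20 and 89 in the cKO library, at least 7.84-fold and 34.9-fold higher against a floor of 3 reads. The median of the list lay above the change of each of the 10 genes, whereas Sirpa and Slc40a1 lay among them.

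The granulocyte list was by far the most abundant, with a summed level of 292206 in the control and 407234 in the cKO library. Of its 18 genes 5 were higher, 2 lower and 11 neither, with a median of 0.45. With library totals 3 were higher and with T cell core genes set equal 11. Camp (0.88) and Chil3 (0.80), of maturing neutrophils, and Csf3r (1.01), the receptor for granulocyte colony-stimulating factor, were higher, beside 0.84 for Lyz2. Mpo (-1.03) and Prtn3 (-1.17), of the primary granules of immature neutrophils, were lower. The abundant S100a9 (0.46) and Ltf (0.47) were called neither, and Ngp (0.66) was higher.

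Of the 10 monocyte markers 7 were higher and 0 lower (median 0.88, summed level 20327 and 31168). All 12 B cell markers were higher (median 2.38, summed level 8591 and 41457). Of the 10 dendritic cell markers 2 were higher and 0 lower (median 0.10, summed level 5154 and 5966). The 16 T cell core genes had 0 higher and 2 lower (median -0.24, summed level 74069 and 60231), and the 12 Treg markers 2 higher and 2 lower (median -0.13, summed level 9664 and 10100). With T cell core genes set equal 4 dendritic cell markers and 4 Treg markers were higher, and the Treg median was 0.11. The part of these cells in the changes of the cathepsins and lysozymes was not tested.

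The reads of the 10 genes were then set against the summed reads of each marker list. Within a list this shifts all 10 changes by the same amount, so their order repeats that of the fold changes above. In the control library most of the 8786 macrophage marker reads were those of Sirpa, Csf1r and Slc40a1. Per summed read of the macrophage markers every one of them was lower in the cKO library. Lyz2 went from 2.47 to 1.58 reads per macrophage marker read, a log2 change of -0.65 (95% interval -0.69 to -0.60), Ctsh changed least at -0.46 and Ctsl most at -1.66. Most of the 302057 granulocyte marker reads of the control library were those of S100a9 (0.46), Ngp (0.66) and Ltf (0.47), so ratios to that sum rest largely on these. Per summed read of the granulocyte markers the 10 genes divided. Ctsh (0.55), Lyz2 (0.36), Ctss (0.21), Ctsc (0.17) and Ctsz (0.12) were higher, the intervals of Ctsa (0.03) and Ctsb (0.02) held 0, and Lyz1 (-0.26), Ctsd (-0.28) and Ctsl (-0.65) were lower. Per monocyte marker read Ctsh (0.42), Lyz2 (0.23) and Ctss (0.07) were higher, Ctsc (0.03) and Ctsz (-0.02) had intervals that held 0, and Ctsa (-0.10), Ctsb (-0.12), Lyz1 (-0.40), Ctsd (-0.42) and Ctsl (-0.79) were lower. Per B cell marker read all 10 were lower, from -2.44 for Ctsl to -1.24 for Ctsh. Per dendritic cell marker read Ctsh (0.82) and Lyz2 (0.63) stood highest and Ctsl (-0.38) lowest. Of the 5328 control and 5246 cKO reads of that list, 2394 and 1973 were those of Ccr7 (-0.05), so these ratios rest largely on that gene.

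**Figure D4:**
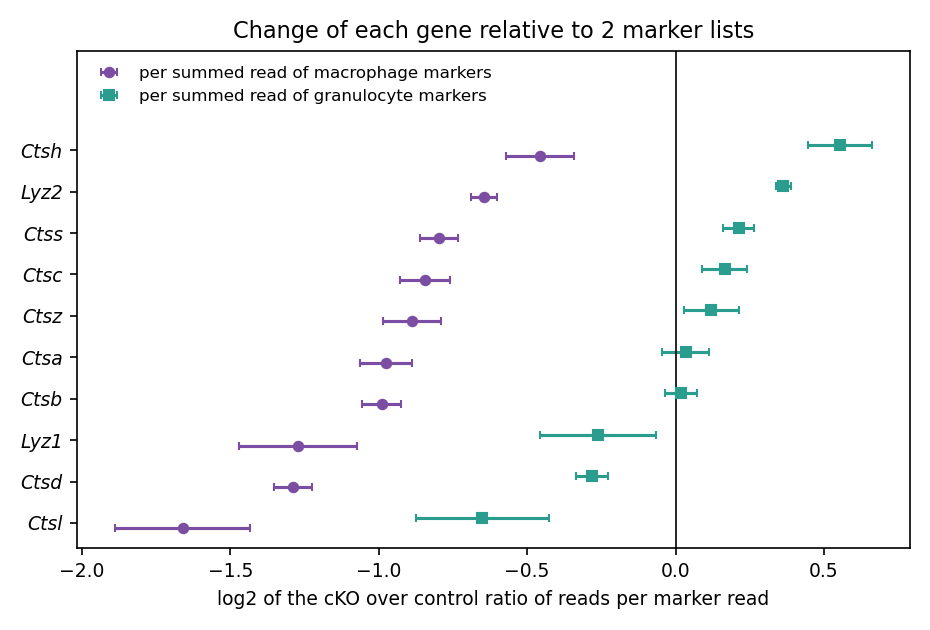
Log2 of the cKO over control ratio of each gene's reads per summed read of 18 macrophage markers (purple circles) or 18 granulocyte markers (green squares), with exact conditional 95% intervals for counting error. All macrophage-relative values lie below 0, from -1.66 (Ctsl) to -0.46 (Ctsh), and the granulocyte-relative values lie on both sides of 0, from -0.65 (Ctsl) to 0.55 (Ctsh).

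The remaining cathepsins were mostly low. Of 14 others, 8 were at 0 or below the minimum level. Of the 6 measured, 1 was higher, 3 lower and 2 neither (17.2% and 24.2% of all genes were higher and lower). With library totals 0 were higher. Ctso, a cysteine cathepsin of broad expression, was higher (521 and 683 reads, 0.62). Ctsg, a serine protease of neutrophil primary granules, was lower (1079 and 352 reads, -1.38), as was Ctsf (114 and 33 reads, -1.53). Ctsk, the collagenase of osteoclasts, had 6 and 0 reads, at least 1.70-fold lower. Ctse, an aspartyl protease like Ctsd, had 4035 and 2355 reads (-0.54), and Ctsw, of cytotoxic lymphocytes, 745 and 794 (0.32). The median of the 6 was -0.96, or -0.66 with Ctsk at its bound and -0.54 with a minimum mean of 10.

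Cystatins and stefins inhibit cysteine cathepsins, stefins inside the cell and most cystatins outside it. Of 11 measured, 5 were higher, 3 lower and 3 neither (17.2% and 24.2% of all genes were higher and lower), with a median of 0.35. The lower calls rested on few reads: a minimum mean of 10 left 5 higher, 0 lower and a median of 1.31, and genes above 0 in both libraries left 3 higher and 1 lower. The abundant secreted inhibitor Cst3 had 137 and 164 RPKM (0.35), Cst7 a log2 fold change of -0.28 and Cstb -0.20, the last with an interval that holds 0. Single members of the stefin A cluster went opposite ways, with Stfa2l1 higher (174 and 545 reads, 1.87), Stfa1 higher (17 and 57 reads, 1.92) and Cstdc4 higher (106 and 152 reads, 0.75). Stfa3 had 0 and 28 reads and Cstdc5 0 and 44, at least 11.0-fold and 17.2-fold higher, whereas Stfa2 had 18 and 0 reads, at least 5.10-fold lower, and Csta2 14 and 5. These are near-identical neighbours whose reads the counting may split, and over the 9 genes of the cluster together the reads were 329 and 831, for a log2 fold change of 1.57 (95% interval 1.38 to 1.76). Cst6 had 12 and 0 reads, at least 3.40-fold lower.

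Of 40 other lysosomal hydrolases and their activators, 15 were higher, 2 lower and 23 neither (17.2% and 24.2% of all genes were higher and lower), with a median of 0.41. The legumain gene Lgmn, whose product processes several cathepsins, was higher (763 and 1643 reads, 1.34), as were Galns (1.27), Scpep1 (1.17) and the abundant saposin precursor Psap (13121 and 17345 reads, 0.64). The nuclease Dnase2a (668 and 180 reads, -1.65) and the hyaluronidase Hyal2 (-0.71) were lower. Lysosomal membrane, acidification and sorting genes had fewer calls: of 27, 2 were higher, 1 lower and 24 neither, where 17.2% and 24.2% of all genes were higher and lower, and their median was 0.12. The higher ones were Slc11a1, a metal transporter of phagosomes (1.28), and Cd68, a glycoprotein of macrophage lysosomes (701 and 1076 reads, 0.85). Lamp1 (0.15) and the mannose 6-phosphate receptor gene Igf2r (0.02), which routes many of these enzymes, were called neither, as was Laptm5 (0.42). The 1 lower gene, the proton pump subunit Atp6v0d2, rested on 27 and 14 reads and its interval holds 0. With T cell core genes set equal 23 hydrolases and 5 membrane and sorting genes were higher.

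Of 10 transcription factors of lysosomal and myeloid genes, 4 were higher and 0 lower (17.2% and 24.2% of all genes were higher and lower), with a median of 0.50. Cebpb (515 and 3334 reads, 2.93), Ciita, the class II transactivator (1.59), Irf8 (1.01) and Spi1, which encodes PU.1 (0.71), were higher. Tfeb (492 and 627 reads, 0.58), just outside the threshold, and Tfe3 (984 and 1119 reads, 0.42) were called neither. So were Mitf (178 and 118 reads), with a log2 fold change of -0.36, Tfec (124 and 101 reads) with -0.06 and Cebpa with -0.04. All 9 genes of the class II pathway on which Ctss acts were higher, with a median of 1.51 and a summed level of 29652 and 84533. The invariant chain gene Cd74 had 546 and 1465 RPKM (1.51), H2-Aa a log2 fold change of 1.62 and H2-DMb2 2.25, all larger than the 0.69 of Ctss.

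**Figure D5:**
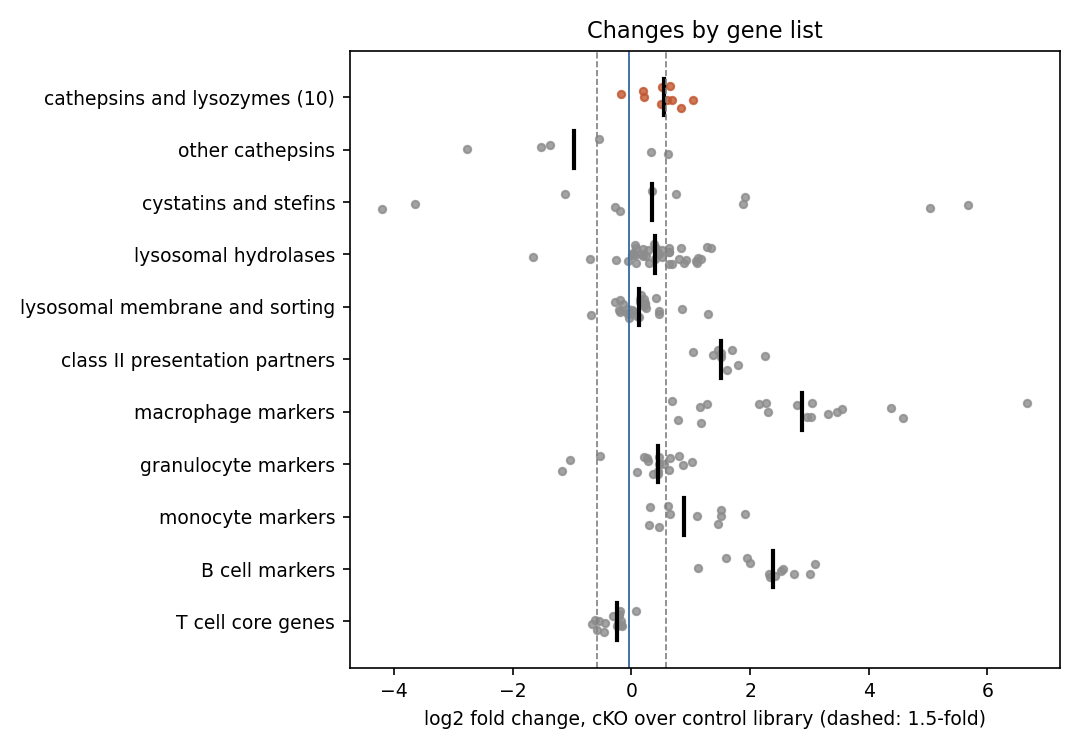
Log2 fold change, cKO over control library, of every measured gene in 11 lists (points) with the median of each list (black bar); the dashed lines mark 1.5-fold, the blue line the median of all genes (-0.04), and genes with 0 reads in 1 library are drawn at the value that the pseudocount of 1 gives. The cathepsins and lysozymes (orange, median 0.56) lie between the membrane and sorting genes (0.12) and the class II (1.51), B cell (2.38) and macrophage (2.88) lists.

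Promoter windows from 250 bases before to 50 after the RefSeq start site (GRCm38.p6) were available for 8 of the 10 genes, all but Ctsb and Ctsh. A pair of motifs was searched on both strands, CACGTG, the core of the site that Tfeb and Mitf recognise, which reads the same on either strand, and AGGAAGT or its reverse ACTTCCT, the core of the site of PU.1 and other ETS factors. The motifs were chosen after values were seen, and a match is a description, not a site. The motif is in capitals in each line, which shows the letters around it.
Ctsa, chr2:164833749-164833778, plus strand: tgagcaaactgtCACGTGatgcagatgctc
Ctsa, chr2:164833766-164833795, plus strand: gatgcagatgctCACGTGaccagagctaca
Ctsd, chr7:142388048-142388077, minus strand: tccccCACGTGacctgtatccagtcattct
Ctsd, chr7:142387908-142387937, minus strand: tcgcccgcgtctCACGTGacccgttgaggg
Ctsl, chr13:64370739-64370768, minus strand: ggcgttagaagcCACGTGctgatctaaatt
Ctsc, chr7:88277922-88277951, plus strand: tgtcactaactaACTTCCTcaggccacctc
Ctss, chr3:95526772-95526801, plus strand: aaatgaaagttcACTTCCTcattgtggatg
Lyz1, chr10:117292951-117292980, minus strand: agatctgtaggaACTTCCTgctttacgcac
Lyz2, chr10:117282355-117282384, minus strand: agatcggtaggaACTTCCTgttttgcacac
CACGTG was in a window of 3 of the 8 genes, Ctsa, Ctsd and Ctsl, and of 8.09% of 27025 genes (7.15% of 32851 windows). AGGAAGT in either orientation was in a window of 4, Ctsc, Ctss, Lyz1 and Lyz2, and of 10.7% of genes (9.35% of windows). No window of a measured member held both, and that of Ctsz held neither. In both lysozyme genes the match begins 100 bases before the start site, within the stretch printed above, at a place where the sequences of the copies do not differ.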

How the data were processed

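Treg cells of the mouse spleen were profiled by RNA-seq in 1 library per genotype, grouped by the sample labels into Ctrl and KD. The methods state alignment to mm10 with TopHat, and the submitters' processing notes name bcl2fastq 2.0, STAR, StringTie and DESeq2 without roles. The counting, its annotation and its use of strand are not given in the sources used here. The values deposited by the authors are a signal: whole reads over a size factor common to all genes of a library, since 100% of the values were whole multiples, within 0.01 reads, of a step of 0.967 (control) or 1.14 (cKO). Reads were recovered by dividing by the step.

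Levels were compared as log2(value + 1) ratios among genes with a mean of at least 1, with a threshold of 1.5-fold. Ratios within a library used exact conditional odds ratio intervals at 95%. A floor of 3 reads corresponds to 0.148 and 0.164 per 1000000 reads. Intervals and floors cover counting error only, since without molecular identifiers PCR copies of a molecule count as several reads. The count test used genes with at least 10 reads, an adjusted p under 0.1 and 1.5-fold. RPKM were computed from recovered reads, library totals and the principal transcript of GENCODE vM21 on GRCm38, which matched 20516 of 20938 symbols and gave a length for 20363 of them. Promoter sequences are from RefSeq (GRCm38.p6).

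The 10 genes and all lists were chosen with earlier results of these data known. The text names all 10 genes, every measured other cathepsin and cystatin, and from each other list genes among the 3 most abundant or the 3 with the largest change in each direction. Tfeb and Tfe3 are named in addition. Other pseudocounts, minimum levels, scalings and thresholds were tried. The steps were tested on simulated data. Python 3.11.15 (numpy 2.4.6, pandas 2.3.3, scipy 1.17.1, matplotlib 3.10.9) and R 4.3.3 (edgeR 4.0.16, DESeq2 1.42.0 for size factors) were used.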

Additional observations from a re-analysis of the deposited data

How the results depend on the processing

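No paired analysis was possible because there is 1 library per genotype, and for the same reason no library could be left out. Pseudocounts of 0.1 and 5 left the count of members at 5 higher and 0 lower, and scaling by TMM or by the median of ratios left 4 and 0, with Ctsz at 0.58 in both. With library totals 3 members were higher and their median was 0.47. With T cell core genes set equal their median was 0.80, 23 hydrolases were higher and 1 lower, and 5 membrane and sorting genes were higher and 0 lower. A threshold of 2-fold left 1722 of all genes, 1 member, 6 hydrolases and 1 membrane and sorting gene higher, and 1 hydrolase and 0 membrane and sorting genes lower. A pseudocount of 5 left 0 membrane and sorting genes lower. Over all genes, a minimum mean of 10 gave 2112 higher and 2035 lower, and genes above 0 in both libraries gave 2182 and 1904, in place of 2864 and 4028, since both settings test fewer genes at low levels. In the count test, an assumed coefficient of variation of 0.2 in edgeR gave 931 genes higher, 1488 lower and 1 member higher, in place of 2126, 2688 and 4. With 0.4, which could not call changes as small as those of the members, it gave 229, 569 and 0. The change of Lyz2 against each of the 8 cathepsins stayed within its interval when Lyz1 reads were added or when the fold changes were subtracted. Neither could move it far. Lyz1 had few reads beside those of Lyz2, and the subtraction differs from the ratio only by the pseudocount. Depth limits Ctsl and Lyz1 most, with 290 to 436 reads per library.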
